A study of Mus musculus with 88 samples.

Results

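Oxidative phosphorylation genes, the nuclear genes for subunits of respiratory complexes I to IV and of ATP synthase (complex V), were followed in the blood of pristane-treated and untreated SNF1 mice. The members were taken by symbol (the Nduf families a, b, c, s and v, Sdha to Sdhd, Uqcr, Cox4 to Cox8 and Atp5), which gave 79 genes of the 17097 genes with a probe set of their own. Complex I had 34 members, complex II 4, complex III 7, complex IV 17 and complex V 17. Each gene was represented by the probe set with the highest mean, and 38 members had more than 1. The symbols also brought in Ndufs5-ps, a transcribed pseudogene, and Ndufa4, counted here in complex I by its name although its protein was later assigned to complex IV.

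Whole blood came from female SNF1 mice, a cross of SWR and NZB mice, with 8 mice in each of 11 groups and 1 array per mouse and week. The sample titles give treatment, week and a number, and do not say whether a mouse was bled at more than 1 week. Arrays of different weeks were treated as separate mice. The groups were mice given pristane, a hydrocarbon oil injected into the peritoneum, with their age-matched untreated mice at weeks 2, 4, 8, 12 and 14 after the injection, and untreated mice with spontaneous disease at 36 weeks of age, which the study selected by proteinuria. No healthy mice of that age were analysed here, so age and disease cannot be told apart in that group. All mice carried the same lupus-prone background, untreated mice included.

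Complex I takes electrons from NADH and complex II takes them from succinate. Complex III hands them on through cytochrome c to complex IV, which reduces oxygen, and the proton gradient built on the way drives ATP synthase. In blood the genes are read from all nucleated cells, from platelets and from young red cells, which clear their mitochondria as they mature. With whole blood, fewer cells of a type and less RNA per cell cannot be told apart.

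The values are log2 signals, and 1 probe set's level cannot be set against another's. Member means over the 88 arrays lay between 1.89 and 12.0 with a median of 8.38, and 2 members, Cox7b2 and Cox7a1, lay below the median of all values (3.89). None of the 13 genes for mitochondrially encoded subunits had a probe set among those named here. The median SD within groups was 0.35 for the members and 0.355 for all genes. A test for any difference among the 11 groups passed for 37 members, or 46.8%, against 40.9% of all genes (limma F test, adjusted p under 0.05), with the lowest adjusted p for Cox7c (2.85e-08). Arrays differed in their spread, with interquartile ranges from 2.74 to 3.78. The group median was 3.57 in untreated mice of week 14, the highest of the 11 groups. It was 3.3 in pristane mice of week 14 and 3.26 in untreated mice of week 12. Arrays numbered 8 in the labels stood apart, with the lowest mean over complex I in 7 of 11 groups and the lowest interquartile range in 7 of 11, so the main counts are also given without them. The markers of blood were present: at week 14 the red cell gene Slc4a1 averaged 12.32 in pristane and 11.43 in untreated mice, and the neutrophil gene S100a8 averaged 12.38 in pristane and 11.42 in untreated mice.

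**Figure D1:**
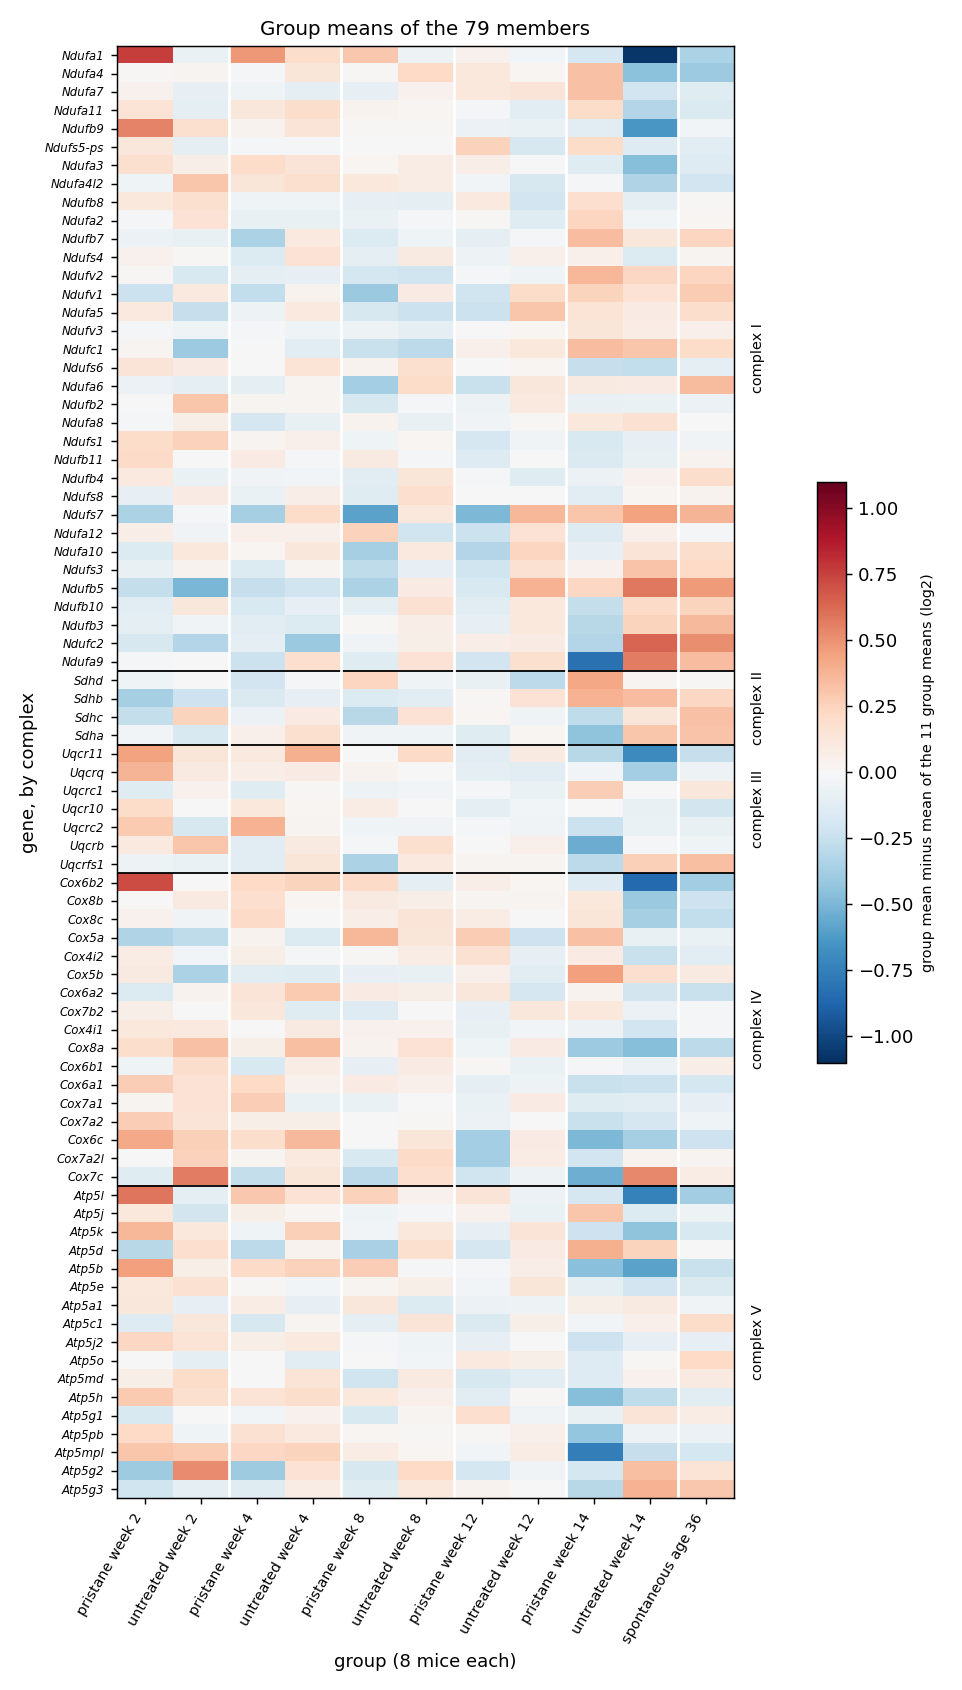
Heat map of the 79 members (rows, by complex) in the 11 groups (columns, 8 mice each), coloured by the group mean minus the mean of the 11 group means on the log2 scale. Red and blue lie side by side within complexes I, IV and V; Ndufa1 and Cox6b2 were lowest in untreated mice of week 14, and Ndufa9 was lowest in pristane mice of week 14.

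Genes of the respiratory chain, like all genes, were called in both directions at week 14 after pristane. A gene was called where the limma fit over all probe sets gave an adjusted p under 0.05. In pristane mice 5 members (6.33%) were higher and 12 (15.2%) were lower than in untreated mice, together 17 of 79 or 21.5%. Among all genes 22.4% were called, with 12.7% higher and 9.72% lower. The members' total share was thus near the background, with a smaller share higher and a larger share lower, a difference that was not tested. The median change was 0.03 over the members and 0.12 over all genes. Complex I had 4 higher and 4 lower members, complex II 0 and 1, complex III 0 and 2, complex IV 0 and 1, and complex V 1 and 4. Leaving out 1 array at a time gave 11 to 23 calls, with 11 without replicate 6 of the untreated mice of week 14. All genes were not counted in these fits, so this range cannot be told from a change over all genes. Without the arrays numbered 8 there were 7 higher and 14 lower members (15.1% and 12.4% of all genes), 16 of the 17 calls among them and Ndufb9 not. With untreated mice of week 12 as control, 3 members were higher and 5 lower (6.53% and 3.87% of all genes), and 5 of the 17 calls were kept. Leaving out single arrays ended the calls of Ndufb10 and Uqcrfs1 (11 of 16 arrays each), Atp5pb (10), Ndufb9 and Atp5mpl (8 each), Atp5g2 (4) and Uqcrb (2). Ndufa4 (0.30, adjusted p = 0.274) and Sdha (-0.46, adjusted p = 0.0763) were not called against untreated mice of week 12, nor were Ndufc2 and Atp5g3 against these mice or with the erythroid score as covariate. Ndufa7 was lost in the same 2 fits, and Ndufb3 and Atp5g2 in both and with the interquartile range of the arrays as covariate. Ndufa9, Cox7c, Atp5mpl and Atp5pb kept their calls against untreated mice of week 12, with either covariate and with quantile scaling. Of these, Atp5mpl and Atp5pb were still lost when single arrays were left out.

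**Figure D2:**
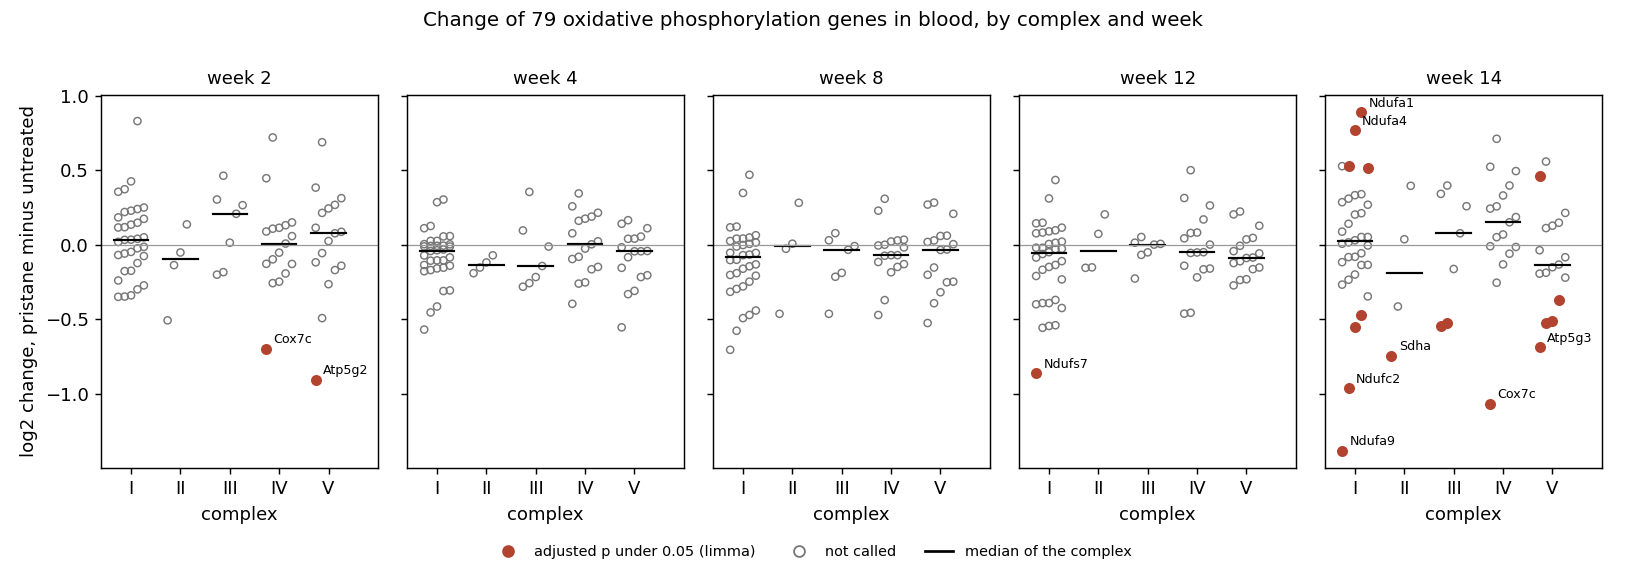
Change of each member (points) between pristane and untreated mice on the log2 scale, by complex and week, with called members filled and the median of each complex as a line. Week 14 holds 17 called members, from Ndufa9 at -1.38 to Ndufa1 at 0.89, against 0 to 2 in each earlier week.

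Complex I held both the lowest and the highest change. Ndufa9, an accessory subunit of the peripheral arm, lay between 6.54 and 8.13 with a median of 7.55 in pristane mice of week 14, against 7.57 to 9.18 with a median of 8.90 in untreated mice. The groups overlapped through 1 untreated mouse, replicate 8 (7.57), the other 7 untreated mice lying above every pristane mouse. Its change was -1.38 (SE 0.215), 2.61-fold lower, with an adjusted p of 9.19e-07. Ndufc2, an accessory subunit of the membrane arm, lay between 5.25 and 6.22 with a median of 5.65 in pristane mice, against 5.91 to 7.11 with a median of 6.65 in untreated mice. Its change of -0.96 (SE 0.234, adjusted p = 0.00141) left 7 of 8 pristane mice below every untreated mouse. Ndufb3 (-0.55, adjusted p = 0.00662) and Ndufb10 (-0.47, adjusted p = 0.0436), both of the membrane arm, were also lower.

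Of the higher members of complex I, Ndufa4 lay between 8.12 and 9.51 with a median of 8.72 in pristane mice, against 7.75 to 8.24 with a median of 8.04 in untreated mice. Of the 8 pristane mice 7 lay above every untreated mouse, and its change was 0.77 (SE 0.16, adjusted p = 0.00019). Ndufa1, an X-linked subunit needed for assembly of the membrane arm, ranged from 8.05 to 10.42 in pristane mice and from 7.88 to 8.96 in untreated mice, with a change of 0.89 (SE 0.281, adjusted p = 0.0155). That call was lost without replicate 7 of the pristane mice (0.72, adjusted p = 0.0667). With untreated mice of week 12 as control the direction turned for Ndufa1 (-0.15) and for Ndufb9 (-0.049), neither called, and with the erythroid score as covariate Ndufa1 was at 0.03. Ndufa7 (0.53, adjusted p = 0.00533) and Ndufb9 (0.52, adjusted p = 0.0405) were the other higher members, and 4 of the 5 probe sets of Ndufa7 were called higher.

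The catalytic core of complex I was not among these calls. The change was 0.09 for Ndufv1 and 0.14 for Ndufv2, which hold the NADH site and its neighbouring iron-sulfur centre. It was -0.08 for Ndufs1, -0.27 for Ndufs3, -0.14 for Ndufs7 and -0.13 for Ndufs8, iron-sulfur and scaffold subunits of the same arm. The lowest adjusted p of these 6 was 0.28, and the widest interval, that of Ndufs7, ran from -0.59 to 0.32.

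In complex II, Sdha, the flavoprotein that oxidises succinate, lay between 7.4 and 9.08 with a median of 8.62 in pristane mice, against 8.12 to 9.5 with a median of 9.34 in untreated mice. Apart from untreated replicate 8 (8.12), every untreated mouse lay above every pristane mouse. Its change was -0.75 (SE 0.173, adjusted p = 0.000835), and 3 of its 4 probe sets were called lower. The other 3 subunits were not called: Sdhb, the iron-sulfur subunit, changed by 0.04, and the membrane anchors Sdhc and Sdhd by -0.41 and 0.40. Without the arrays numbered 8 Sdhc was called lower (-0.57, adjusted p = 0.00896).

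In complex III the Rieske iron-sulfur protein Uqcrfs1 (-0.54, adjusted p = 0.0431) and the small subunit Uqcrb (-0.53, adjusted p = 0.0214) were lower, and the core subunits Uqcrc1 (0.26) and Uqcrc2 (-0.16) were not called. Uqcrfs1 averaged 6.47 ± 0.43 in pristane and 7.01 ± 0.51 in untreated mice (SD, n = 8 each), and leaving out any of 11 single arrays ended its call.

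Complex IV had a single called member, Cox7c, a small nuclear-encoded subunit next to the catalytic core. Its signal lay between 7.44 and 8.15 with a median of 7.98 in pristane mice of week 14, against 8.74 to 9.29 with a median of 8.97 in untreated mice. The groups did not overlap, which made Cox7c 1 of 79 members with every pristane mouse below every untreated mouse, against 1.27% of all genes. The change was -1.07 (SE 0.159), 2.09-fold lower, with an adjusted p of 3.76e-07. Against untreated mice of week 12 it was -0.48 (adjusted p = 0.0381). Ndufa9 and Cox7c were the 2 members past 2-fold, against 3.8% of all genes, and each has 1 probe set only.

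Cox7c was followed through the 5 weeks. At week 2 it averaged 8.35 ± 0.20 in pristane and 9.05 ± 0.29 in untreated mice. At week 4 it averaged 8.22 ± 0.29 in pristane and 8.62 ± 0.43 in untreated mice, and at week 8 it averaged 8.20 ± 0.39 in pristane and 8.67 ± 0.45 in untreated mice. The means were 8.27 ± 0.33 in pristane and 8.42 ± 0.16 in untreated mice at week 12, and 7.94 ± 0.23 in pristane and 9.01 ± 0.18 in untreated mice at week 14 (SD, n = 8 each). In each week the pristane mean was the lower of the pair. The test passed at week 2 (-0.70, adjusted p = 0.00402) and week 14, and missed at weeks 4, 8 and 12 (adjusted p from 0.112 to 0.768). At week 2 the groups also did not overlap, 1 of 79 members against 0.17% of all genes. The pristane effect at week 14 was lower than that at week 12 by 0.91 (interaction, SE 0.225, adjusted p = 0.0159), where 2.15% of all genes passed and Cox7c was the 1 member. Untreated mice of week 14 lay above all untreated mice of week 12 (means of 9.01 at week 14 and 8.42 at week 12; difference 0.59, adjusted p = 0.0742), as did 0.17% of all genes, in a comparison that shares those untreated mice.

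The tissue-bound and testis-type forms of complex IV were not called at week 14. The muscle-type genes Cox6a2, Cox7a1 and Cox8b changed by 0.24, -0.01 and 0.52, and the lung-type Cox4i2 by 0.33. The testis-type Cox6b2 averaged 9.72 ± 0.71 in pristane and 9.01 ± 0.51 in untreated mice, a difference of 0.71 with an adjusted p of 0.0531, and the testis-type Cox8c changed by 0.50. Outside complex IV, Ndufa4l2, a relative of Ndufa4, changed by 0.31 and the pseudogene Ndufs5-ps by 0.34, neither called. The widely expressed forms Cox4i1 (0.15), Cox6a1 (-0.01), Cox6b1 (0.05), Cox7a2 (-0.06), Cox7a2l (-0.25) and Cox8a (0.07) had adjusted p of 0.182 or above. Cox7a2l is a factor of supercomplexes rather than a subunit of the isolated enzyme. Without the arrays numbered 8, Cox6b2 (0.80), Cox8b (0.56) and Cox8c (0.66) were called higher and Cox7a2l (-0.41) lower. Means over the 88 arrays were low for Cox7a1 (3.83), Cox4i2 (4.01), Ndufa4l2 (4.03) and Cox8b (4.42), against a median of all values of 3.89. Whether these 4 genes are expressed in blood was not tested.

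In complex V the 3 genes for subunit c, the ring that turns with proton flow, encode the same mature protein. Atp5g3 lay between 7.81 and 9.77 with a median of 9.28 in pristane mice, against 9.37 to 9.96 with a median of 9.87 in untreated mice. Of the 8 pristane mice 5 lay below every untreated mouse, and the change was -0.69 (SE 0.181, adjusted p = 0.00345). Atp5g2 changed by -0.52 (adjusted p = 0.0227) and Atp5g1 by -0.22 (adjusted p = 0.336). Atp5mpl, a small proteolipid (-0.51, adjusted p = 0.0416), and Atp5pb, of the peripheral stalk (-0.37, adjusted p = 0.0476), were lower. Atp5j, also of the stalk, was higher (0.46, adjusted p = 0.0191), a call lost without pristane replicate 7 (0.32, adjusted p = 0.114). That call was also lost in limma with the erythroid score (adjusted p = 0.262) or the interquartile range (adjusted p = 0.242) as covariate. It was lost as well against untreated mice of week 12 (adjusted p = 0.0885) and with quantile scaling (adjusted p = 0.0631). The catalytic head showed no call: Atp5a1 changed by -0.04, Atp5b by 0.13 and Atp5c1 by -0.08.

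**Figure D3:**
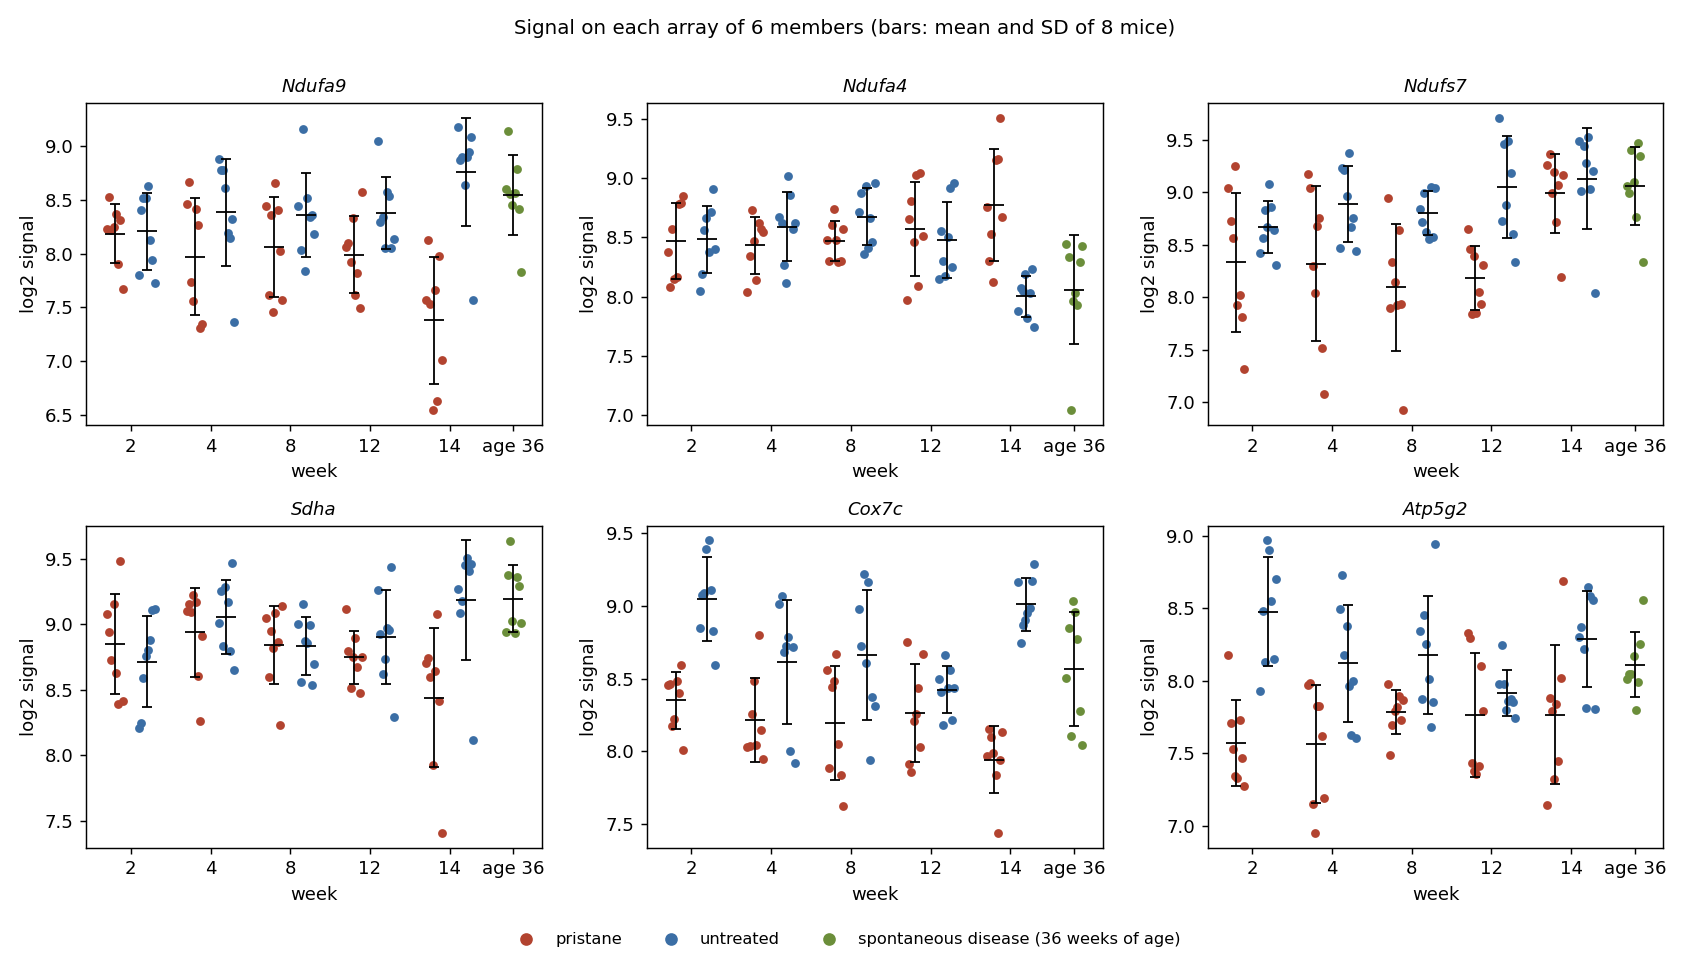
Log2 signal of 6 members on every array, by week, pristane mice left of untreated mice and spontaneous disease at the right; bars give the mean and SD of 8 mice. Cox7c is lower in pristane mice at weeks 2 and 14 with no overlap, Ndufa9 is lower at week 14, and Ndufs7 is lower at week 12 (mean 8.19 in pristane and 9.05 in untreated mice).

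The earlier weeks held few calls. At week 2, 2 members were lower and 0 higher, against 3.58% of all genes called, 2.29% higher and 1.29% lower. Besides Cox7c this was Atp5g2, which lay between 7.28 and 8.18 with a median of 7.5 in pristane mice, against 7.93 to 8.97 with a median of 8.52 in untreated mice. A single pristane mouse reached into the untreated range, and the change was -0.91 (SE 0.174, adjusted p = 0.000288). The changes of Atp5g2 were -0.55, -0.39 and -0.15 at weeks 4, 8 and 12, where it was not called. The largest rises at week 2, in Ndufa1 (0.83), Cox6b2 (0.72) and Atp5l (0.69), were not called either (adjusted p from 0.0851 to 0.146).

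At weeks 4 and 8, 0 members were called by limma, against 2.98% and 2.63% of all genes. At an unadjusted p under 0.05 there were 8 and 13 members, a threshold at which all genes were not counted. At week 12, where 3.77% of all genes were called, the 1 member was Ndufs7, which carries the last iron-sulfur centre before ubiquinone. It lay between 7.84 and 8.65 in pristane mice, against 8.33 to 9.71 in untreated mice, with medians of 8.18 in pristane and 9.03 in untreated mice. Of the 8 untreated mice 6 lay above every pristane mouse. The change was -0.86 (SE 0.231, adjusted p = 0.0189), and the call was lost without untreated replicate 1 or 5 (adjusted p up to 0.0598). Its changes at weeks 2, 4 and 8 were -0.34, -0.57 and -0.71, all not called, and the change at week 14 was -0.14; the difference between the effects of weeks 14 and 12 was not called (0.73, adjusted p = 0.245).

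Between spontaneous disease and untreated mice of week 14 the limma fit called 0 members and 0% of all genes. At an unadjusted p under 0.05 it held 4 members, with all genes not counted at that threshold. Cox7c averaged 8.57 ± 0.39 in spontaneous disease and 9.01 ± 0.18 in untreated mice (difference -0.44), and Ndufa1 averaged 9.0 ± 0.57 in spontaneous disease and 8.28 ± 0.33 in untreated mice (difference 0.72; SD, n = 8 each). Each had an adjusted p of 1.

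Pristane mice of week 14 differed from mice with spontaneous disease in 12 members, 2 higher (Ndufa4 and Ndufa7) and 10 lower, against 10% of all genes, 5.59% higher and 4.42% lower. Ndufa9 averaged 7.38 ± 0.59 in pristane mice and 8.54 ± 0.37 in spontaneous disease, a change of -1.16 (SE 0.215, adjusted p = 9.46e-05). Ndufb3 was the 1 member with every pristane mouse below every mouse with spontaneous disease (8.07 ± 0.32 in pristane mice and 8.74 ± 0.16 in spontaneous disease, change -0.66, adjusted p = 0.0023), against 0.292% of all genes. Sdha (-0.76), Ndufc2 (-0.83), Cox7c (-0.62), Sdhc (-0.60), Uqcrfs1 (-0.62), Atp5g3 (-0.60), Atp5mpl (-0.57) and Ndufb10 (-0.51) were the other lower members. In this comparison the pristane mice were younger than the mice with spontaneous disease, so age, treatment and disease cannot be told apart. It shares its pristane mice with the comparison against untreated mice. Without pristane replicate 1 it held 7 calls, with all genes not counted in that fit. Without the arrays numbered 8 it held 14, 2 higher and 12 lower (6.63% and 6.1% of all genes). Leaving out single arrays ended the calls of Ndufb10 and Uqcrfs1 (10 of 16 arrays each), Atp5mpl (9), Ndufa7 (5), Atp5g3 (4) and Sdhc (1, pristane replicate 7).

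Blood cell markers moved with pristane at week 14. The mean over 20 erythroid markers averaged 9.09 (8.42 to 10.28) in pristane and 8.23 (7.58 to 9.22) in untreated mice, with 8 of 20 markers higher. That of 16 neutrophil markers averaged 8.11 (7.36 to 8.61) in pristane and 6.84 (6.51 to 7.28) in untreated mice, with 12 higher. That of 11 platelet markers averaged 10.68 (10.02 to 11.10) in pristane and 9.71 (9.35 to 10.04) in untreated mice, with 11 higher. Of the B cell markers 9 of 14 were lower and 0 higher, of the T cell markers 6 of 14 and 0, of the NK cell markers 5 of 11 and 1, and of the monocyte markers 2 of 12 and 1. The erythroid mean of untreated mice was 8.23 at week 14 and 9.04 at week 12, with 0 of 20 markers called between these weeks by limma. Their part in the changes of the members was not tested beyond the fits that follow.

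Among mice of the same group, many members followed the erythroid markers. With the group means held in the fit, the limma slope on the erythroid score was positive for 39 members, or 49.4%, and negative for 18, or 22.8%, at an adjusted p under 0.05. Among all genes 35.7% had a positive and 31.3% a negative slope, and the counts over the members were the same without the 2 arrays farthest from the median score (34.9% and 30.4% of all genes). Without the arrays numbered 8 they were 38 and 19 (35% and 30.3% of all genes). Complexes III and IV had 5 of 7 and 10 of 17 positive and 0 negative slopes, complex V had 11 and 3 of 17, and complex I 13 and 11 of 34. All 4 subunits of complex II had negative slopes in this fit, from -0.38 for Sdhc to -0.22 for Sdha.

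The steepest slopes were those of Ndufa1, at 1.0 log2 units per unit of score (95% interval 0.89 to 1.12), Cox6b2 (0.92), Atp5l (0.92), Uqcr11 (0.84), Atp5b (0.77) and Ndufa11 (0.74). Atp5l and Uqcr11 are small membrane subunits of complexes V and III, and Atp5b is the catalytic beta subunit. The lowest were Ndufb5 (-0.52), Ndufc2 (-0.41), Sdhc and Atp5g3 (both -0.38). Within groups the score correlated with the interquartile range of the arrays at r = -0.694 and with the T cell score at r = -0.636 (88 arrays, a description). With the interquartile range beside the score, 33 members, or 41.8%, kept or gained a positive slope and 3 had a negative one, against 7.37% and 4.01% of all genes. Of the 39 positive slopes 26 were shared, Ndufa1, Cox6b2, Atp5l, Uqcr11 and Atp5b among them, and of the 18 negative slopes 2, Sdhc and Atp5g3. Complex II then had 1 negative slope among its 4 members and a median slope of 0.044, against -0.303 without the interquartile range. Complex I had 13 positive and 0 negative slopes, complex III 5 and 0, complex IV 8 and 0, and complex V 7 and 2. Slopes on the neutrophil and platelet scores were called for 2 members up and 2 down each, against 5.33% and 1.97% of all genes for neutrophils and 3.89% and 0.287% for platelets. On the B cell score 25 members had positive and 20 negative slopes (23.5% and 31.5% of all genes), and on the T cell score 22 and 29 (26.3% and 32.7%).

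**Figure D4:**
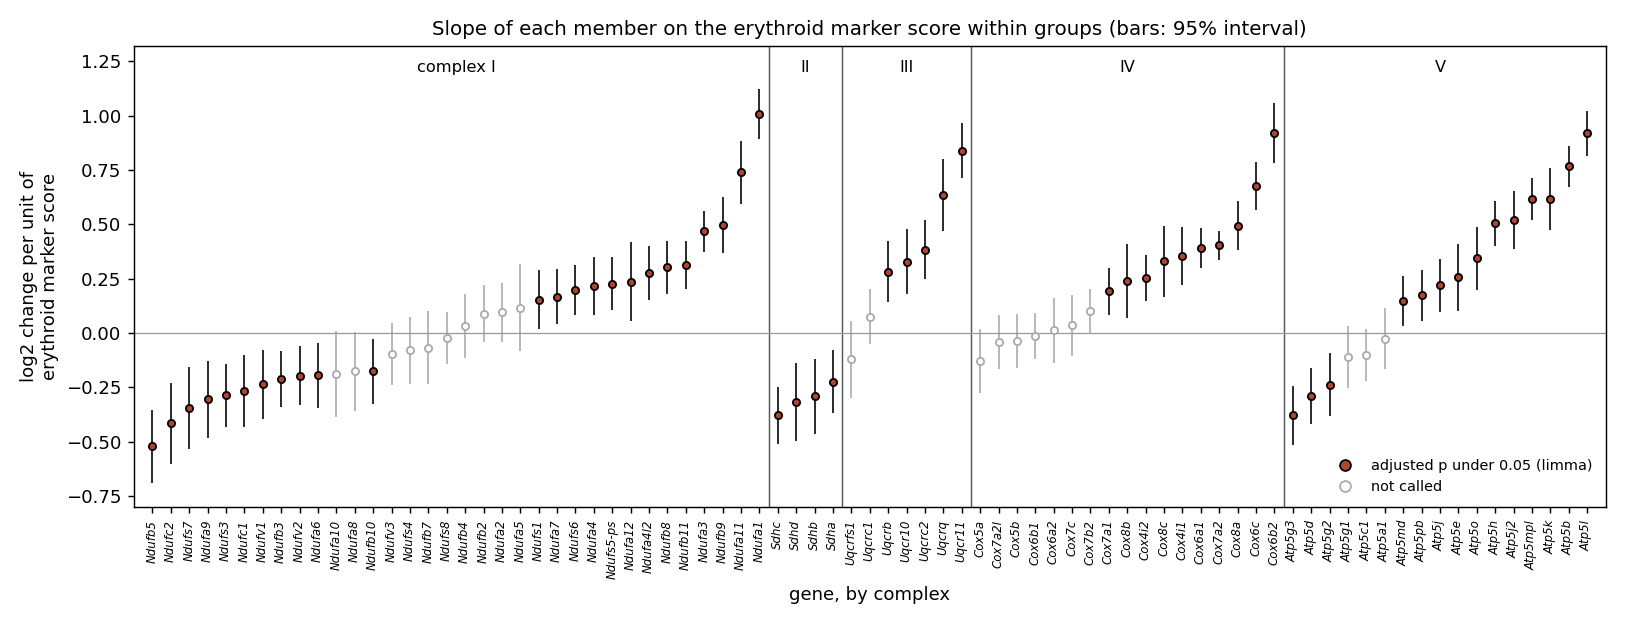
Slope of each member on the mean of 20 erythroid markers, within groups, over 88 arrays, by complex; bars give the 95% interval and filled points an adjusted p under 0.05. The fit is the one without the interquartile range of the arrays. Slopes run from -0.52 (Ndufb5) to 1.0 (Ndufa1). All 4 members of complex II lie below 0, and no called slope of complexes III and IV does. With the interquartile range beside the score, 1 of the 4 had a called negative slope.

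The slopes fitted without the interquartile range were set beside the changes at week 14. All 5 higher members had a positive slope. Of the 12 lower members 7 had a negative slope, 3 (Uqcrb, Atp5mpl and Atp5pb) a positive one and 2 (Cox7c and Uqcrfs1) neither. With the interquartile range beside the score, the limma slopes of Ndufa4 (0.13, adjusted p = 0.402) and Atp5j (0.005, adjusted p = 0.981) were not called. Of the 7 negative slopes only that of Atp5g3 was still called (-0.32), and that of Ndufa9 was 0.21 (adjusted p = 0.152). Such slopes were not counted over all genes called at week 14. With the erythroid score as a covariate, 3 members were called higher and 13 lower at week 14 (8.74% and 5.62% of all genes), and 7 of the 17 calls were kept. Ndufa9 (-1.12) and Cox7c (-1.1) kept their calls, and Ndufa1 did not (0.03, adjusted p = 0.942). Atp5b, not called otherwise, was lower by 0.53 in that fit (adjusted p = 0.000361). With the interquartile range as covariate 7 were higher and 9 lower (10.4% and 5.22% of all genes), and 10 of the 17 calls were kept.

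Between untreated mice of week 14 and of week 12, limma called 0 members, against 0.0702% of all genes. With an unadjusted p under 0.05 there were 19 members, and all genes were not counted at that threshold. Without the arrays numbered 8, 5 members were lower and 0 higher (1.36% and 0.567% of all genes): Ndufa1, Uqcr11, Cox6b2, Cox8a and Atp5b. Ndufa1 averaged 8.28 ± 0.33 at week 14 and 9.32 ± 0.41 at week 12 (difference -1.04, adjusted p = 0.0736), and Cox6b2 averaged 9.01 ± 0.51 at week 14 and 9.88 ± 0.52 at week 12 (difference -0.88, adjusted p = 0.126; SD, n = 8 each). These untreated mice of week 14 are also the control of the comparison at week 14.

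Upstream sequences are shown for the members with the 2 lowest changes at week 14, Ndufa9 and Cox7c, and at week 2, Atp5g2 and Cox7c, to set them beside the promoters of other members. They are the 250 bases before the annotated start, from RefSeq on GRCm38.p6, written 5′ to 3′ along the gene. Capitals mark the letters CGCATGCG, the core of the site read by NRF1, a regulator of respiratory chain genes, or CCGGAAG, the core of sites of ETS factors such as GABPA. Both strands were searched, and CGCATGCG reads the same on both.
Cox7c, chr13:86046796-86047045, minus strand: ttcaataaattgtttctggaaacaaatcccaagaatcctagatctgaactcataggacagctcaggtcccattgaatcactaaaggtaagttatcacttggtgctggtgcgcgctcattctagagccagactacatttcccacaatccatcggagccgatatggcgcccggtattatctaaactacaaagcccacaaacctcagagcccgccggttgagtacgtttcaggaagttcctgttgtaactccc
Ndufa9, chr6:126849145-126849394, minus strand: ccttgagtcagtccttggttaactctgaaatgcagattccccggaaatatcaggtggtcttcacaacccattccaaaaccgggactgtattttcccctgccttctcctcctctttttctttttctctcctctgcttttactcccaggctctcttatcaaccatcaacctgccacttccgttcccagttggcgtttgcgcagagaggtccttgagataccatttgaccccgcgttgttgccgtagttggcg
Atp5g2, chr15:102671048-102671297, minus strand: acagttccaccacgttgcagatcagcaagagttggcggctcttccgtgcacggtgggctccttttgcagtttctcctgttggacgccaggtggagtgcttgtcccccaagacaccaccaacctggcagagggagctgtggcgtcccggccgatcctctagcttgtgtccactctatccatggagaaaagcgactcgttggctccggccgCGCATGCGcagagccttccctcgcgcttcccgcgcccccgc
Cox7c and Ndufa9 held neither set of letters in this window, nor did Ndufc2, the third lowest at week 14, and Atp5g2 held the NRF1 letters once.

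Of the 79 members, 63 had an upstream sequence here. The NRF1 letters stood in 7 of them, or 11.1%, against 1.75% of the 27025 genes with such a sequence, and the ETS letters in 10, or 15.9%, against 7.83%. The windows below show these letters in the other 6 members that held them, with up to 15 bases on each side, as the members that can be set beside Atp5g2. The window of Atp5j lies inside the annotated span of its gene (84827871 to 84835857), so the start used there is an internal one.
Ndufa8, chr2:36049339-36049362, minus strand: gcgcgtcgctggagaCGCATGCGc
Ndufa11, chr17:56717688-56717725, plus strand: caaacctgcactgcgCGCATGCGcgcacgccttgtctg
Cox6a1, chr5:115349097-115349134, minus strand: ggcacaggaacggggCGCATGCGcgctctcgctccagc
Atp5j, chr16:84835101-84835138, minus strand: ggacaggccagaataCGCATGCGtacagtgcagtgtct
Atp5k, chr5:108434426-108434463, minus strand: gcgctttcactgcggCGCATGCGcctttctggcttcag
Atp5l, chr9:44920961-44920992, minus strand: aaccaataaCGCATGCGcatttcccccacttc
Of the 7 genes with the NRF1 letters, 5 had a positive and 1 a negative slope on the erythroid score, against 22 and 16 of the 56 without. These slopes are from the fit without the interquartile range. With it beside the score, the limma slopes of Atp5j (0.005, adjusted p = 0.981) and Atp5g2 (-0.13, adjusted p = 0.469) were not called. Only 2 of the 18 negative slopes of all members were then still called, and the genes without the letters were not recounted. At week 14, 1 of the 7 genes with the NRF1 letters was called higher (Atp5j) and 1 lower (Atp5g2). Of the 10 lower members with a sequence, 0 held the ETS letters. A match describes these letters only.

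Genes around the respiratory chain were counted at week 14 on the same fit, in which 12.7% of all genes were higher and 9.72% lower. Of 40 assembly factors 2 were higher and 4 lower, with Cox17, a copper carrier for complex IV, at 0.73 and Tmem70, an assembly factor of ATP synthase, at -1.12. Of 12 electron carriers and other proteins of the complexes 1 was higher, Atpif1, the inhibitor of ATP synthase (0.64), and 2 lower, among them Pdss2, for ubiquinone synthesis (-1.05). Of 16 regulators of mitochondrial biogenesis 0 were higher and 3 lower, with Gabpa at -0.84 (5.07 in pristane and 5.91 in untreated mice, adjusted p = 0.00128) and Twnk, the mitochondrial DNA helicase, at -0.56. Of 16 genes of the citric acid cycle 0 were higher and 2 lower, Idh2 (-0.61) and Suclg2 (-0.59). Of 14 glycolysis genes 6 were higher and 0 lower, among them Tpi1 (1.1, adjusted p = 1.34e-06) and the hexokinase Hk3 (1.07, adjusted p = 8.42e-06). Against spontaneous disease, 5 of the 14 glycolysis genes were higher in pristane mice and 0 lower (5.59% and 4.42% of all genes).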

How the data were processed

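RNA from whole blood was hybridised to 88 Affymetrix mouse arrays, each treated as 1 mouse, and the number of arrays per group limits the precision. The authors deposited log2 signals, for which the submitters' processing notes name RMA and Partek, without versions. Values were used as deposited. Of 45141 probe sets, 104 controls were left out. A single limma fit (version 3.58.1, R 4.3.3) with 11 group means gave 9 comparisons, with Benjamini-Hochberg adjustment over 45037 probe sets in each and a call at an adjusted p under 0.05. The fit was checked on simulated data. Each gene was named from the platform annotation where a probe set had 1 gene, and the one with the highest mean stood for it. Named members were, by rule, those called past 2-fold, the 3 with the largest moderated t at week 14 in each complex, the catalytic core, the tissue-specific paralogs and non-subunits, and the 2 genes with the largest t in each other list; the other called members and those named for slopes, sequences or low levels were named after their values were seen. The members and lists were chosen with earlier results of these data known. Alternatives covered scaling, covariates, filters, other controls and left-out arrays.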

Additional observations from a re-analysis of the deposited data

Results flagged for a closer look

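Of 100 groups of values, 16 held an array whose gap to its neighbours passed Dixon's 95% critical value for 8 samples, where chance alone gives about 1 in 20 groups. In the mean over all members, replicate 7 of pristane mice at week 14 stood at 8.83 (the others 8.10 to 8.44), replicate 3 of spontaneous disease at 8.14 (8.33 to 8.49) and replicate 8 of untreated mice at week 2 at 8.04 (8.33 to 8.54). In complex I, pristane replicate 7 of week 14 stood at 8.55, and replicate 8 of the untreated mice at 7.62 at week 2, 7.71 at week 4 and 7.63 at week 14. Untreated replicate 8 of week 14 was also low in complex II (7.33), Ndufa9 (7.57), Sdha (8.12) and Uqcrfs1 (5.82). In complex III, pristane replicate 7 of week 14 stood at 8.68 and spontaneous replicate 3 at 7.48. In complex V, spontaneous replicate 3 stood at 9.09 and untreated replicate 4 of week 14 at 9.24. In Cox7c, pristane replicate 6 of week 14 stood at 7.44 (the others 7.83 to 8.15).

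The pristane effect on Cox7c differed between weeks 14 and 12 by a test of the difference itself (-0.91, adjusted p = 0.0159, limma).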

How the results depend on the processing

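Ndufa9 and Cox7c kept their calls at week 14 in every alternative run for them and with each array left out; having 1 probe set each, they were not in the fit of second probe sets. Against 17 calls at week 14, untreated mice of week 12 as control gave 8 (5 of them among the 17) and only the groups compared gave 10. Second probe sets, which 38 genes have, gave 4 calls at week 14 (the first sets of these genes 2), 2 at week 2 (0), 0 at week 12 (1), 1 against spontaneous disease (2) and 0 for the difference between weeks 14 and 12 (0). With the erythroid covariate Atp5b was at -0.53, and with untreated mice of week 12 as control Ndufa1 was at -0.15 and Ndufb9 at -0.049; the cause was not tested. All genes were counted in the covariate, quantile and week 12 control fits at week 14 and in the fits without the arrays numbered 8. They were not counted in the other alternatives, whose changes in count can thus not be told from changes over all genes. At week 2 (2 calls), centring gave 4, the erythroid covariate 4, the interquartile range 8 and quantile scaling 5. At week 4 (0 calls), centring, the erythroid covariate, the filter on dim probe sets and quantile scaling gave 1 each. At week 8 (0 calls), these gave 5, 1, 2 and 4, and the interquartile range 3. At week 12 (1 call), they gave 2, 3, 2 and 2 and the interquartile range 4. For the difference between weeks 14 and 12 (1 call), they gave 2 each and the interquartile range 3. Pristane against spontaneous disease (12 calls) gave 7 with only the groups compared. Untreated week 14 against week 12 (0 calls) gave 2 with the filter and 3 with only the groups compared. The fits without the arrays numbered 8 were chosen after seeing the data, and their calls follow with the percent of all genes higher and lower. Calls were 4 at week 2 (3.02% and 2.42%), 2 at week 4 (2.43% and 1.06%) and 1 at week 8 (2.28% and 0.602%). They were 4 at week 12 (2.85% and 2.18%), 21 at week 14 (15.1% and 12.4%) and 14 against spontaneous disease (6.63% and 6.1%). Between untreated weeks there were 5 (0.567% and 1.36%), and for the difference 3 (1.26% and 1.94%). Leaving out 1 array gave 2 to 3 calls at week 2, 0 to 1 at week 4, 0 to 2 at week 8, 0 to 3 at week 12, 11 to 23 at week 14, 1 to 3 for the difference, 7 to 12 against spontaneous disease and 0 to 2 between untreated weeks.

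Same-numbered mice of a week correlated in their deviations at r from -0.24 to 0.543, with 1 to 3 of 8 pairs over 0.1 in each week and 1 to 3 of 8 correlating best with their own number. The labels give no shared origin for a number, so the mice were not treated as pairs, although arrays numbered 8 were low in complex I in 7 of 11 groups. A replicate block gave 20 calls at week 14, 2 at week 8, 2 at week 12 and 2 for the difference.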
